A study of Mus musculus with 5 samples.

Results

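Cartilage genes were read in 5 RNA sequencing libraries of sorted fetal mouse muscle cells. The 10 genes were Matn1, Matn3, Col2a1, Col9a1, Col9a2, Col9a3, Col11a1, Acan, Snorc and Sox9, picked by symbol from the 25873 named genes of the deposited table. They were chosen because their levels differed between libraries of a single group, so the levels below are a description and are not tested. The cells were tdTomato-positive and lineage-negative (read here as free of stains for endothelial, leukocyte and erythroid cells), sorted from limb muscle of C57BL/6J fetuses at E16.5 (days after conception). Every fetus carried Pax7-CreER, a tamoxifen-activated recombinase driven by the muscle progenitor gene Pax7, and the Rosa-tdTomato reporter. Tamoxifen, 240 mg per kg, had been given to the mothers by mouth for 2 days from E12.5 on. The wild-type (WT) group, with the recombinase and reporter alone, had 2 libraries, WT Em2 and WT Em4. The Notch1 conditional knockout (cKO), with floxed Notch1 added, had 1 library, Em8, and the Notch2 cKO, with floxed Notch2 added, had 2 libraries, Em3 and Em4. The labels do not say whether libraries of a group came from separate fetuses or litters.

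Cartilage is made by chondrocytes, which surround themselves with thin fibrils of type II collagen that carry type XI collagen in the core and type IX collagen on the surface. The proteoglycan aggrecan fills the space between the fibrils, and matrilins link fibrils and proteoglycans. The transcription factor SOX9 switches on many of these genes and is also made in other fetal tissues. In the limb, cartilage forms the skeletal elements to which the dissected muscles attach, whereas myogenic cells are not known as a main source of its matrix.

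The libraries held between 20740258 and 28827897 counted reads, recovered from the steps of the RPKM values (RPKM counts reads per gene length and library total). The muscle markers were read in every library, with Myog, the transcription factor of differentiating myoblasts, between 944 and 1737 RPKM, and the intermediate filament gene Des between 131 and 231 RPKM. The progenitor gene Pax7 was lowest in Notch2 cKO Em4, at 4.15 RPKM, and stood at 9.90 to 13.4 RPKM in the other libraries. The targeted gene Notch1 had 7.26 and 13.5 RPKM in WT against 2.33 RPKM in its knockout library, and was called lower there (limma adjusted p = 0.0443), a call kept in 5 of 10 other settings and in 1 of 4 fits without a library. The WT values of Notch2, 2.40 and 4.17 RPKM, overlapped with those of the Notch2 cKO libraries, 3.35 RPKM for Em3 and 2.03 RPKM for Em4. These whole-gene values thus do not show a loss of Notch2 RNA in its knockout, and a loss of the floxed part alone was not tested. The column names carry digits of unstated meaning, which are the same for WT Em4 and Notch2 cKO Em4, the same for both Notch2 cKO Em3 and Notch1 cKO Em8, and different in WT Em2.

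Col2a1 encodes the chain of type II collagen, the main fibril of hyaline cartilage (ENSMUSG00000022483.17, GRCm38 chromosome 15, 97975602 to 98004695, minus strand). It was 2.2 RPKM in library WT Em2, 7.62 in library WT Em4, 1.88 in Notch1 cKO (Em8), and 0.648 (Em3) and 55.4 (Em4) in Notch2 cKO. Notch2 cKO Em4 was thus the highest library and Notch2 cKO Em3 the lowest, so that the Notch2 cKO group enclosed every other library. These values rested on 276, 894, 246, 69 and 8198 reads in that order of libraries. The 95% exact Poisson intervals of WT Em2 and Notch1 cKO Em8 overlapped, at 1.95 to 2.48 and 1.65 to 2.13 RPKM, while the other neighbours in the order were apart. Without molecular identifiers, such intervals describe nothing beyond the counting of reads. The sources used here do not state whether each read or each pair of ends was counted, and if both ends of a pair were counted the intervals are too narrow. In libraries made from many cells, a difference in the number of cells of a type and a difference in RNA per cell cannot be told apart.

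The genes of type IX collagen, whose chains form a heterotrimer on the fibril surface, had the same highest library. Col9a3 (chromosome 2, 180597790 to 180622189, plus strand) was 1.60 (Em2) and 5.13 (Em4) RPKM among WT libraries, 0.839 RPKM in the Notch1 cKO library, and 0.695 (Em3) and 37.2 (Em4) RPKM among Notch2 cKO libraries. Col9a2 (chromosome 4, 121039385 to 121055322, plus strand) was 18.7 RPKM in Notch2 cKO Em4 but 1.23 in its partner Em3, beside 0.984 (Em2) and 3.36 (Em4) for WT and 0.869 for Notch1 cKO. Both genes were highest in Notch2 cKO Em4 and next in WT Em4, while the other 3 libraries stood lower. Col9a1 (chromosome 1, 24177610 to 24252684, plus strand) has a pair of annotated starts whose transcripts a gene-level value pools. It was 0.758 RPKM in library WT Em2, 1.20 in library WT Em4, 0.252 in Notch1 cKO (Em8), and 0.347 (Em3) and 10.1 (Em4) in Notch2 cKO. For Col9a1 both WT libraries stood above Notch1 cKO Em8 and Notch2 cKO Em3, which had 25 and 28 reads.

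Col11a1, for the alpha 1 chain of type XI collagen in the fibril core (chromosome 3, 114030540 to 114220718, plus strand), spread least among the matrix genes. It was 0.884 (Em2) and 2.33 (Em4) RPKM among WT libraries, 1.55 RPKM in the Notch1 cKO library, and 0.954 (Em3) and 6.80 (Em4) RPKM among Notch2 cKO libraries. Its highest library was 7.69-fold above its lowest, against a median of 44.1-fold over the 9 matrix genes (all members but Sox9). Col11a1 was also the only matrix gene for which Notch1 cKO Em8 stood between the WT libraries rather than below both. This gene is also made outside cartilage.

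The matrilins are adaptor proteins of the cartilage matrix with von Willebrand factor A domains. Matn1 (ENSMUSG00000040533.7, chromosome 4, 130944385 to 130955475, plus strand) was 24.2 RPKM in Notch2 cKO Em4 but 0.120 in its partner Em3, beside 0.921 (Em2) and 2.38 (Em4) for WT and 0.137 for Notch1 cKO. It had the widest spread of the 10 genes, with Notch2 cKO Em4 at 201-fold the level of Notch2 cKO Em3. The low end of that ratio rested on 5 reads (95% exact Poisson interval 0.0391 to 0.281 RPKM) and on 7 reads in Notch1 cKO Em8, and these lowest libraries could not be told apart by counting error. Matn3 (ENSMUSG00000020583.4, chromosome 12, 8947929 to 8972028, plus strand) was 0.204 RPKM in library WT Em2, 0.653 in library WT Em4, 0.130 in Notch1 cKO (Em8), and 0.304 (Em3) and 7.95 (Em4) in Notch2 cKO. In Notch2 cKO Em3 the matrilins differed, since Matn3 lay between the WT libraries there, with a counting interval that overlapped that of WT Em2, and Matn1 lay below both.

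Acan encodes aggrecan, the large proteoglycan that holds water in cartilage (chromosome 7, 79053483 to 79115099, plus strand). In each library it was the lowest of the 10 genes per length, at 0.184 (Em2) and 0.559 (Em4) RPKM among WT libraries, 0.0692 RPKM in the Notch1 cKO library, and 0.111 (Em3) and 1.90 (Em4) RPKM among Notch2 cKO libraries. Snorc, for a small membrane proteoglycan of cartilage cells (chromosome 1, 87470271 to 87475482, plus strand), was 18.4 RPKM in Notch2 cKO Em4 but 0.417 in its partner Em3, beside 2.04 (Em2) and 2.08 (Em4) for WT and 0.593 for Notch1 cKO. Snorc was the only matrix gene at nearly the same level in both WT libraries, with a ratio of 1.02 against 1.59 to 3.46 for the others. It is short, at 462 bases in the deposited values, and its lower libraries had 4 to 23 reads.

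Sox9, the transcription factor upstream of many of these genes (ENSMUSG00000000567.5, chromosome 11, 112782224 to 112787760, plus strand), behaved differently. It was 10.1 RPKM in library WT Em2, 14.6 in library WT Em4, 15.8 in Notch1 cKO (Em8), and 10.3 (Em3) and 19.8 (Em4) in Notch2 cKO, on 883 to 2370 reads. The libraries lay within 1.97-fold of each other. Notch1 cKO Em8, lowest for 4 of the matrix genes, was the second highest for Sox9 and did not differ from WT Em4 beyond counting error. Sox9 was the most abundant of the 10 genes per length in every library except Notch2 cKO Em4, where Col2a1 and Col9a3 stood at 55.4 and 37.2 RPKM and Matn1 at 24.2 RPKM.

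**Figure D1:**
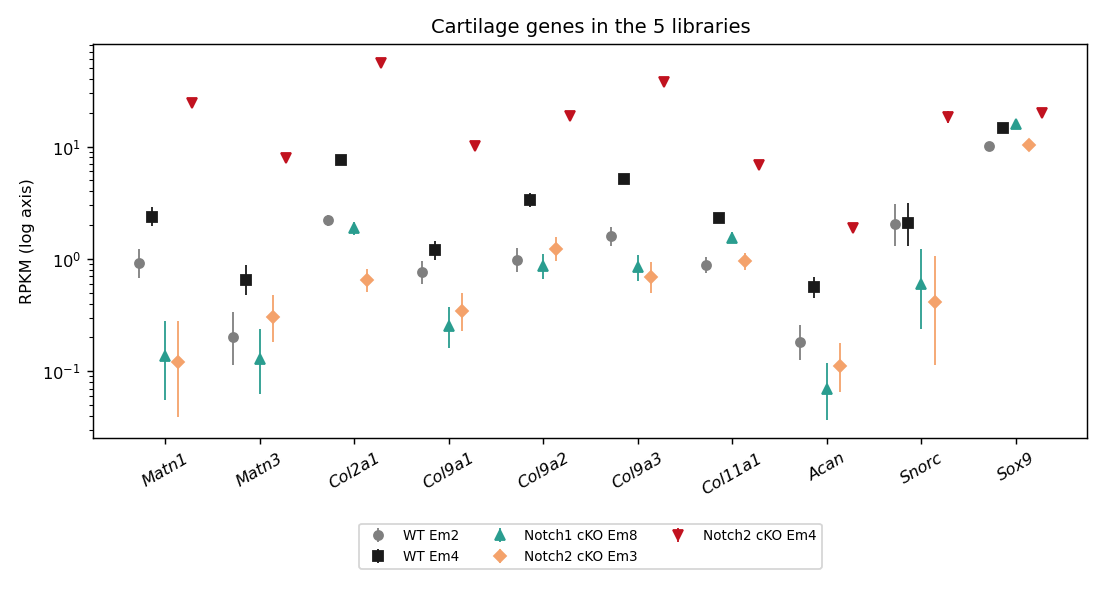
Level of each of the 10 cartilage genes in RPKM (log axis) in the 5 libraries, with symbols and colours for the libraries and bars for 95% exact Poisson intervals of the recovered reads, which cover counting error only. Notch2 cKO Em4 is the highest library for all 10 genes, and Sox9 stays between 10.1 and 19.8 RPKM.

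Promoters are shown for the matrilins, which had the largest fold of Notch2 cKO Em4 over WT Em4, for Col9a2 as a type IX collagen gene, and for Col11a1, the matrix gene of least spread. RefSeq windows (GRCm38.p6, 250 bases before to 50 after a start) were matched for 6 of the 10 genes, Matn1, Matn3, Col9a1, Col9a2, Col11a1 and Acan, with 7 windows in all. The 250 bases before the start are printed, plus strand, with GGGCGG and its reverse complement, the letters of a GC box, in capitals. The start is that of RefSeq, which for Col9a2 lies 181 bases after the GENCODE start given above, so that most of its printed bases lie inside the gene as GENCODE has it. For Acan the RefSeq start lies 257 bases before the GENCODE start, and the starts are equal for Matn1, Matn3 and Col11a1.
Matn1, chr4:130944135-130944384: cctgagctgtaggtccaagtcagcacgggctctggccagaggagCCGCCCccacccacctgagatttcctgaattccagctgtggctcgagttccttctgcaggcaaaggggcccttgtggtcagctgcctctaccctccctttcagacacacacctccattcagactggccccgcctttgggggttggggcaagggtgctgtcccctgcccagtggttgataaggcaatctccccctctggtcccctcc
Matn3, chr12:8947679-8947928: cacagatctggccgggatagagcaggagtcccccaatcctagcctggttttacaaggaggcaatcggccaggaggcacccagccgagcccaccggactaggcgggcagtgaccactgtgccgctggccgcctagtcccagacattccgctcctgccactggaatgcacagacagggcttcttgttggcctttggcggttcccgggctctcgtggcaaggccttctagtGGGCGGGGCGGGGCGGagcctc
Col9a2, chr4:121039316-121039565: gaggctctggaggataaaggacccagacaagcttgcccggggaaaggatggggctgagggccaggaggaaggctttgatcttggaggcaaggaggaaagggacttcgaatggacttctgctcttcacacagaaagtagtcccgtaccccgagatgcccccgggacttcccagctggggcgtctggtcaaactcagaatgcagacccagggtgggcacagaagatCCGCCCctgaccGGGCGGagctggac
Col11a1, chr3:114030290-114030539: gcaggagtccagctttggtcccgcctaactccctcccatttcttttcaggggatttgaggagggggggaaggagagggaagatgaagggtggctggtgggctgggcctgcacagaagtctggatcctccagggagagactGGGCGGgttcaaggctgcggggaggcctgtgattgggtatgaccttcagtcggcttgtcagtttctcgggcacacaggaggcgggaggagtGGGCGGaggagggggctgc
The letters were found in 5 of the 7 windows, all but those of Col9a1, and in 35.7% of all 32851 windows of this length, counting both strands and overlaps. The core letters of SOX-type sites, ACAATG or ACAAAG on either strand, were in none of the 7 windows and in 28.6% of all windows. This says only that these letters are not in these windows. In the 250 bases before the start, the capitals occur 3 times for Matn3 and Acan, 2 times for Col11a1 and Col9a2 and 1 time for Matn1.

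All 10 genes were highest in Notch2 cKO Em4, and 9 of them had WT Em4 as the second highest library, Sox9 being the exception. Among the 9 genes that passed a filter of a mean of at least 1 RPKM, these counts were 9 and 8, where 33.3% and 11.1% of the 11543 genes tested had these orders. Matn1, Matn3 and Col9a1 passed the filter only through Notch2 cKO Em4, so the shares do not test them. WT Em4 stood above WT Em2 for all 10 genes and all 9 tested, as it did for 69.2% of the genes tested. WT Em4 and Notch2 cKO Em4 share the digits of their names. Between them, Notch2 cKO Em4 stood 2.91-fold (Col11a1) to 12.2-fold (Matn3) above WT Em4 over the 9 matrix genes, with a median of 7.27-fold, and 1.36-fold above it for Sox9. Against the other Notch2 cKO library the range was 7.12-fold to 201-fold, with a median of 29.1-fold, and 1.93-fold for Sox9. Between the other pair that shares digits, Notch1 cKO Em8 stood above Notch2 cKO Em3 for 6 of the 10 genes and below it for the others. The part of whatever the digits mark in these differences was not tested.

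Summed over the 9 matrix genes, the level was 9.77 and 25.3 RPKM in WT Em2 and Em4, 6.31 in Notch1 cKO Em8, 4.83 in Notch2 cKO Em3 and 181 in Notch2 cKO Em4. The sum over Sox9 gave a ratio of 0.971 and 1.74 in WT, 0.399 in Notch1 cKO Em8, 0.470 in Notch2 cKO Em3 and 9.11 in Notch2 cKO Em4. Matrix RNA and Sox9 RNA thus had different orders of libraries. Col2a1 made up 30.1% of the sum in WT Em4, 30.7% in Notch2 cKO Em4 and 29.7% in Notch1 cKO Em8, and 22.5% and 13.4% in WT Em2 and Notch2 cKO Em3. Col9a3 had 20.3% and 20.6% in WT Em4 and Notch2 cKO Em4 and 13.3% to 16.3% elsewhere. Col11a1 had its largest shares in the libraries with a low sum, with 24.5% and 19.8% in Notch1 cKO Em8 and Notch2 cKO Em3, 9.04% and 9.21% in WT, and 3.76% in Notch2 cKO Em4. Matn1 made up 2.17% and 2.49% in Notch1 cKO Em8 and Notch2 cKO Em3, 9.42% and 9.40% in WT, and 13.4% in Notch2 cKO Em4. The shares in Notch2 cKO Em3 and Notch1 cKO Em8 rest on 397 and 718 reads in all.

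**Figure D2:**
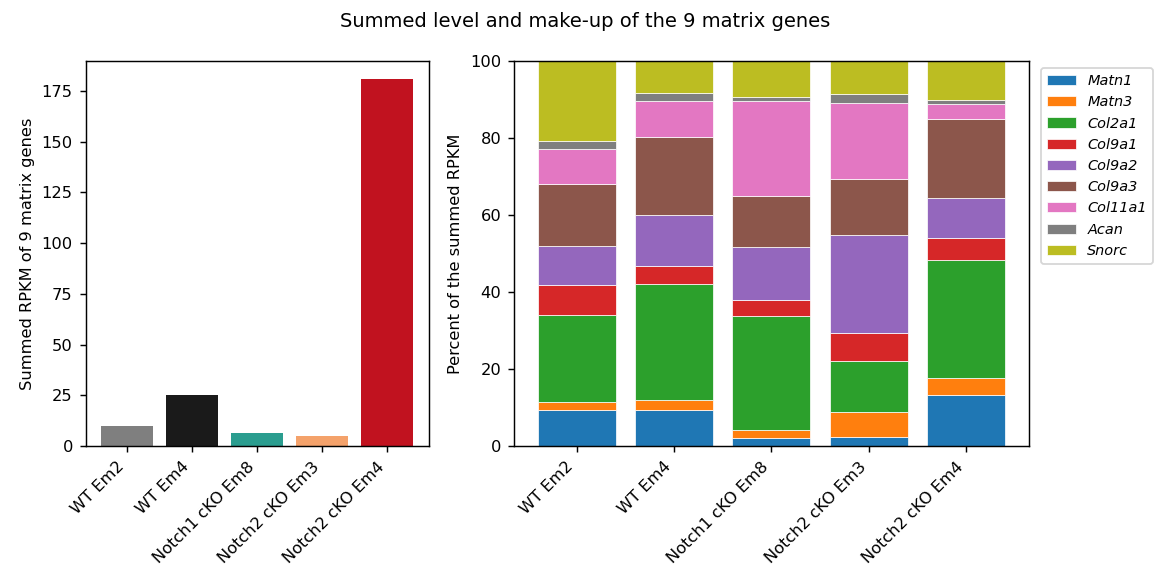
Left, summed RPKM of the 9 matrix genes in each library, from 4.83 in Notch2 cKO Em3 to 181 in Notch2 cKO Em4. Right, share of each gene in that sum in percent, where the share of Col11a1 runs from 3.76% (Notch2 cKO Em4) to 24.5% (Notch1 cKO Em8).

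Setting Notch2 cKO beside WT addresses what deleting Notch2 in the Pax7 lineage changes. No cartilage gene was called. For Matn1, Col2a1, Col9a1, Col9a3, Acan and Snorc the Notch2 cKO libraries lay on either side of both WT libraries. The genes had been chosen from differences among these libraries, so the fits are given as a description and no support is drawn from them. Over all genes limma on log2(RPKM + 1) called 41 genes higher (0.355% of those tested) and 21 lower (0.182%) at an adjusted p under 0.05, and 881 had an unadjusted p under 0.05. With libraries rescaled to the same sum the counts were 26 higher and 2 lower. Limma voom on the recovered reads called 0 genes higher and 1 lower, with 813 at an unadjusted p under 0.05. Of the 10 cartilage genes 9 were tested, with 0 called in either direction by limma. Acan, at a mean of 0.565 RPKM, was left out. Matn1, Matn3 and Col9a1 passed only through Notch2 cKO Em4, since 6 members had a mean of at least 1 RPKM over the other libraries. All 9 had a log2 fold change above 0, as did 68.1% of the genes tested, with a median of 0.97 against 0.14 for all genes. Matn3 had the smallest p, with 0.43 ± 0.32 RPKM (SD, n = 2) in WT and 4.13 ± 5.41 RPKM (SD, n = 2) in Notch2 cKO (difference 1.28 in log2, SE 0.35, limma adjusted p = 0.0664). Col2a1 stood at 28.0 ± 38.7 RPKM (SD, n = 2) against 4.91 ± 3.83 RPKM (SD, n = 2), a log2 fold change of 0.88 (SE 0.49, limma adjusted p = 0.704). Sox9 had a log2 fold change of 0.22 (SE 0.30, limma adjusted p = 0.89).

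Taken alone, Notch2 cKO Em3 and Em4 gave opposite directions against WT. Without Notch2 cKO Em4 the log2 fold changes of all 9 genes were below 0, with a median of −0.55, from −0.11 for Matn3 to −1.67 for Col2a1. Col2a1 was then called lower (SE 0.42, limma adjusted p = 0.0226), as were 7 of all genes (0.0606%), and 5 of the 9 stood below both WT libraries in Notch2 cKO Em3, where 16.8% of the genes tested did. Without Notch2 cKO Em3 the median was 2.67 and 8 of the 9 were called higher, all but Sox9 (log2 fold change 0.67, limma adjusted p = 0.783), where 44 of all genes (0.381%) were. The library left in that fit is the one in which the 10 genes were highest. Without WT Em2 the median was 0.60, with 8 of the 9 above 0, and without WT Em4 it was 1.47. In these fits a group keeps 1 library, which is assumed to vary like the others. No member had both Notch2 cKO libraries above both WT libraries, as 28.3% of the genes tested had, and no member had both below, as 9.44% had.

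**Figure D3:**
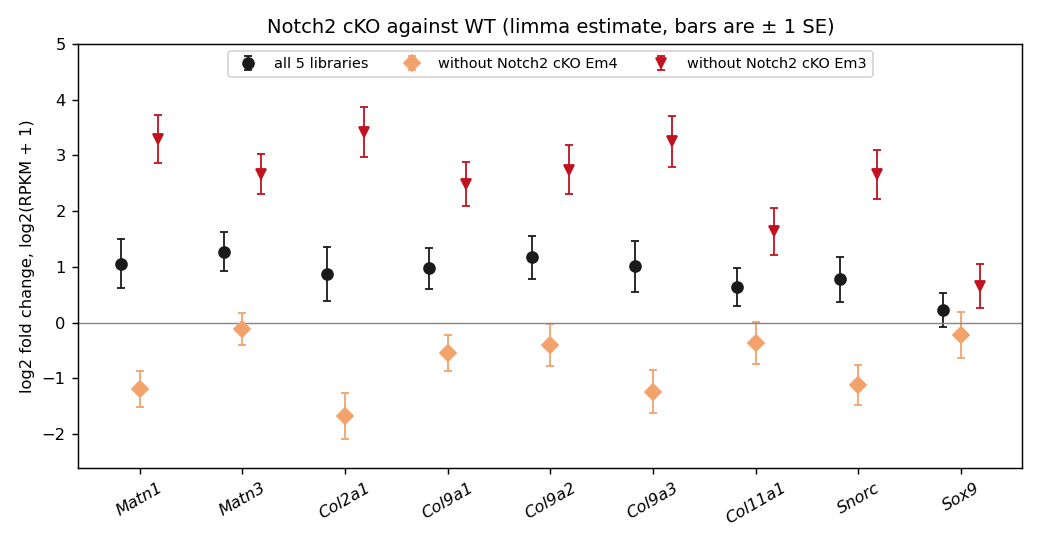
Log2 fold change of Notch2 cKO against WT on the log2(RPKM + 1) scale for the 9 genes tested, with bars of 1 SE, for all 5 libraries and for the fits without Notch2 cKO Em4 or without Notch2 cKO Em3. The direction turns below 0 for all 9 genes without Notch2 cKO Em4. The SE comes largely from the spread of other genes and can be narrower than that of a gene's own libraries.

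For Notch1 the same question rests on 1 knockout library, set against the same WT libraries. None of the cartilage genes was called. This comparison called 5 genes higher (0.0433%) and 3 lower (0.026%) over all genes by limma, with 213 at an unadjusted p under 0.05. Of the 10 cartilage genes 8 stood below both WT libraries in Notch1 cKO Em8. Among the 9 tested this count was 7, where 26.1% of all genes tested did so, and Sox9 stood above both, as 24.3% did. The counting intervals of Notch1 cKO Em8 and WT Em2 overlapped for Col2a1, Col9a2 and Matn3, as did those of Notch1 cKO Em8 and WT Em4 for Sox9. Of the 9, 2 had a log2 fold change above 0, where 51.5% of all genes did, and the median was −0.65, against 0.01 for all genes. Matn1 lay lowest, at −1.16 (SE 0.54, limma adjusted p = 1), followed by Col9a3 at −1.12 (SE 0.55, limma adjusted p = 1). With limma, Sox9 had a log2 fold change of 0.36 (SE 0.37, limma adjusted p = 1).

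Notch2 cKO was also set beside the 1 Notch1 cKO library, again as a description of genes chosen on these libraries. In this fit limma called 3 members higher in Notch2 cKO, namely Matn1 (log2 fold change 2.22, SE 0.54, adjusted p = 0.0251), Col9a3 (2.13, SE 0.55, adjusted p = 0.0473) and Col9a2 (1.83, SE 0.48, adjusted p = 0.0473). The SEs come largely from the spread of other genes, while Matn1 itself had 0.120 (Em3) and 24.2 (Em4) RPKM in Notch2 cKO. Over all genes 32 were called higher (0.277%) and 24 lower (0.208%), and 8 of the 9 members lay above 0, where 61.8% of all genes did. With libraries rescaled to the same sum these counts were 20 higher and 7 lower, and after median-of-ratios scaling 14 and 18. The calls rested on Notch2 cKO Em4, through which alone Matn1 passed the filter. Without it the log2 fold changes were −0.021 for Matn1, −0.12 for Col9a3 and 0.25 for Col9a2, and no member was called. Without Notch2 cKO Em3, which leaves 1 library against 1, 7 members were called higher, where 45 of all genes (0.39%) were, and none was without WT Em2 or without WT Em4. Over the settings other than leaving out a library, the adjusted p ran from 0.000514 to 0.86 for Matn1, from 0.00748 to 0.86 for Col9a3 and from 0.0306 to 0.86 for Col9a2. Sox9 had a log2 fold change of −0.14 (SE 0.37, limma adjusted p = 0.954), with a range of −0.32 to 0.03 over the same settings.

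Most of 20 further cartilage genes were also highest in Notch2 cKO Em4. Their number was 16, or 10 of the 12 tested, where 33.3% of all genes tested were highest there. Some of the 12 passed the filter only through Notch2 cKO Em4, so the share does not test them. Among these, Epyc, Chad and Hapln1 had at most 0.406, 0.688 and 0.580 RPKM in the other libraries. Summed over the 20 genes, the level was 21.7 and 38.5 RPKM in WT Em2 and Em4, 23.0 in Notch1 cKO Em8, 23.8 in Notch2 cKO Em3 and 146 in Notch2 cKO Em4. Cnmd, for the cartilage glycoprotein chondromodulin, was 1.63 (Em2) and 4.14 (Em4) RPKM among WT libraries, 1.25 RPKM in the Notch1 cKO library, and 0.537 (Em3) and 37.6 (Em4) RPKM among Notch2 cKO libraries. The secreted protein genes Mia and Cytl1 reached 29.7 and 19.1 RPKM in Notch2 cKO Em4, with at most 5.32 and 4.27 RPKM elsewhere. The sum in Notch2 cKO Em3 was not the lowest, as it was for the matrix genes, but lay above those of WT Em2 and the Notch1 cKO library. Of that sum, Wwp2 and Sox6 had 6.07 and 4.63 RPKM. The median tested gene of the list, taken as the difference from its own mean on the log2(RPKM + 1) scale, was lowest in Notch2 cKO Em3. It was −0.63 there, −0.57 in Notch1 cKO Em8 and −0.43 in WT Em2. Col27a1, for a fibrillar collagen of cartilage, was highest in the Notch1 cKO library, at 3.54 RPKM, and stood at 1.63 RPKM in Notch2 cKO Em4. Of the 12 genes tested none was called against WT in either knockout, and 1, Mia, was called higher in Notch2 cKO against Notch1 cKO (limma adjusted p = 0.0245), a call kept in 3 of 10 other settings and, without a library, in 1 of 4 fits. Their median log2 fold change was 0.63 in Notch2 cKO against WT, −0.33 in Notch1 cKO against WT and 1.05 between the knockouts, beside 0.14, 0.01 and 0.12 for all genes. Wwp2, a ubiquitin ligase gene active in cartilage, varied less, from 4.40 to 9.42 RPKM, and Sox6, a partner of SOX9, stood at 2.74 to 4.63 RPKM with Notch2 cKO Em3 highest.

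The genes that process cartilage matrix varied less. Among 13 genes of collagen folding and secretion, all tested and none called in any comparison, 9 were highest in Notch2 cKO Em4. Of all genes tested 33.3% were highest there. Serpinh1, the collagen chaperone, was 129 RPKM in Notch2 cKO Em4 but 46.2 in its partner Em3, beside 40.0 (Em2) and 76.6 (Em4) for WT and 63.1 for Notch1 cKO. P4hb, a subunit of collagen prolyl hydroxylase, stood at 62.3 (Em2) and 85.8 (Em4) RPKM in WT, 57.0 RPKM for Notch1 cKO, and 76.5 (Em3) and 152 (Em4) RPKM for Notch2 cKO. In Notch2 cKO Em4 the median gene of the list lay 0.23 above its own mean over libraries on the log2(RPKM + 1) scale, against 2.41 for the 9 cartilage genes tested and 0.06 for all genes. Among genes of proteoglycan sulphation and chain synthesis that median was 0.21, with 4 of 11 genes, or 3 of the 7 tested, highest in Notch2 cKO Em4. Ugdh, which makes a sugar precursor of the chains, ran from 35.8 to 58.8 RPKM.

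Genes of neighbouring skeletal tissues were mixed. The tendon transcription factor gene Scx lay between 30.5 and 37.9 RPKM in all libraries, and the tendon membrane protein gene Tnmd stood at 11.1 RPKM in the Notch1 cKO library beside 11.7 RPKM in Notch2 cKO Em4. Fmod, for a small proteoglycan of tendon and cartilage, stood at 7.66 RPKM in Notch2 cKO Em4 and at most 1.61 RPKM elsewhere. Spp1, for osteopontin, reached 7.05 RPKM there against at most 1.37 RPKM elsewhere, while the osteoblast transcription factor gene Sp7 was at or below 0.0514 RPKM in every library. The hypertrophic cartilage gene Col10a1 stayed at or below 0.443 RPKM and the joint gene Gdf5 at or below 0.404 RPKM. Both were highest in Notch2 cKO Em4, where Gdf5 had 27 reads, against 0 to 2 elsewhere, and Col10a1 40, against 8 to 30. Notch2 cKO Em4 was the highest library for 5 of 12 growth plate genes, 5 of 10 joint and perichondrium genes, 6 of 12 osteoblast genes and 4 of 10 tendon genes. Among those tested the counts were 1 of 3, 1 of 3, 4 of 5 and 3 of 8, where 33.3% of all genes tested were highest there. No gene of these lists was called in any comparison. Of 12 interstitial fibroblast genes 4 were highest in Notch2 cKO Em4, or 2 of the 9 tested. Summed over this list, the level there was 324 RPKM, below the 334 RPKM of Notch1 cKO Em8. In that list Mfap5 was called higher in Notch1 cKO against WT and Dpt lower in Notch2 cKO against Notch1 cKO (limma adjusted p = 0.0169 and 0.0425). These calls were kept in 4 and 3 of 10 other settings and in 0 of 4 fits without a library.

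Some markers of blood cells were also highest in Notch2 cKO Em4. Of 8 mast cell genes 6 were highest in Notch2 cKO Em4, or all 3 tested, where 33.3% of all genes tested were. The mast cell genes had a summed level of 33.8 RPKM there, 13.3 in Notch2 cKO Em3, 3.73 and 9.96 in WT and 1.39 in Notch1 cKO Em8. The tryptase gene Tpsb2 reached 10.5 RPKM in Notch2 cKO Em4, and Ms4a2, a subunit of the mast cell IgE receptor, was at 0 there. Also at 0 were Ms4a2 in WT Em2, Tpsab1 in WT Em4, and Tpsab1 and Mcpt4 in Notch1 cKO Em8. By limma Tpsb2 and the protease gene Cpa3 were called higher in Notch2 cKO against WT (adjusted p = 0.00459 and 0.0336), and these and Cma1 against Notch1 cKO. Against WT the call of Tpsb2 was kept in 5 and that of Cpa3 in 1 of 9 other settings. Of 5 fits without a library, 3 kept the call of Tpsb2 and 2 that of Cpa3, and both were lost without Notch2 cKO Em4. Of 8 haematopoietic genes 5 were highest in Notch2 cKO Em4, or 2 of the 3 tested. The 8 had a summed level of 20.4 RPKM there, against 12.1 in Notch2 cKO Em3, 13.0 and 16.3 in WT and 13.6 in Notch1 cKO Em8. Cd68 of this list went the other way, lowest in Notch2 cKO Em4 at 5.13 RPKM, against 7.27 to 9.64 RPKM elsewhere. Ptprc, for the leukocyte antigen CD45, lay between 0 and 0.145 RPKM in the libraries. Erythroid genes were lower by sum in both Notch2 cKO libraries than in the others, with a sum of 312 RPKM in Notch2 cKO Em4 and 366 in Notch2 cKO Em3, against 713 and 846 in WT and 1250 in Notch1 cKO Em8. The near-identical globin genes Hba-a1 and Hba-a2, between which reads can be split, were called lower in Notch2 cKO against WT (limma adjusted p = 0.018 and 0.00459). The calls were kept in 4 and 5 of 10 other settings. Of 5 fits without a library, 2 kept the call of Hba-a1 and 3 that of Hba-a2, and both were lost without either Notch2 cKO library. The part of such cells in the level of the cartilage genes was not tested. Over 10 myogenic genes, 6 of them highest in Notch2 cKO Em4 and Pax7 lowest there, the sum was 3665 RPKM in Notch2 cKO Em4 and 3561 in Notch2 cKO Em3, against 2790 and 2991 in WT and 2338 in Notch1 cKO Em8. The remaining lists summed to 20.3 to 30.3 RPKM for keratinocyte genes, 21.7 to 40.9 for endothelial, 10.9 to 22.0 for pericyte, 3.99 to 8.65 for glial and 34.9 to 106 for adipocyte genes. Adipoq and Cidea of the adipocyte list were called higher in Notch2 cKO against WT (limma adjusted p = 0.0349 and 0.0316). Of 9 other settings 2 kept the call of Adipoq and 3 that of Cidea, and both were lost without either WT or either Notch2 cKO library. The highest library was Notch1 cKO Em8 for keratinocyte, endothelial and pericyte genes, Notch2 cKO Em3 for adipocyte genes and Notch2 cKO Em4 for glial genes.

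**Figure D4:**
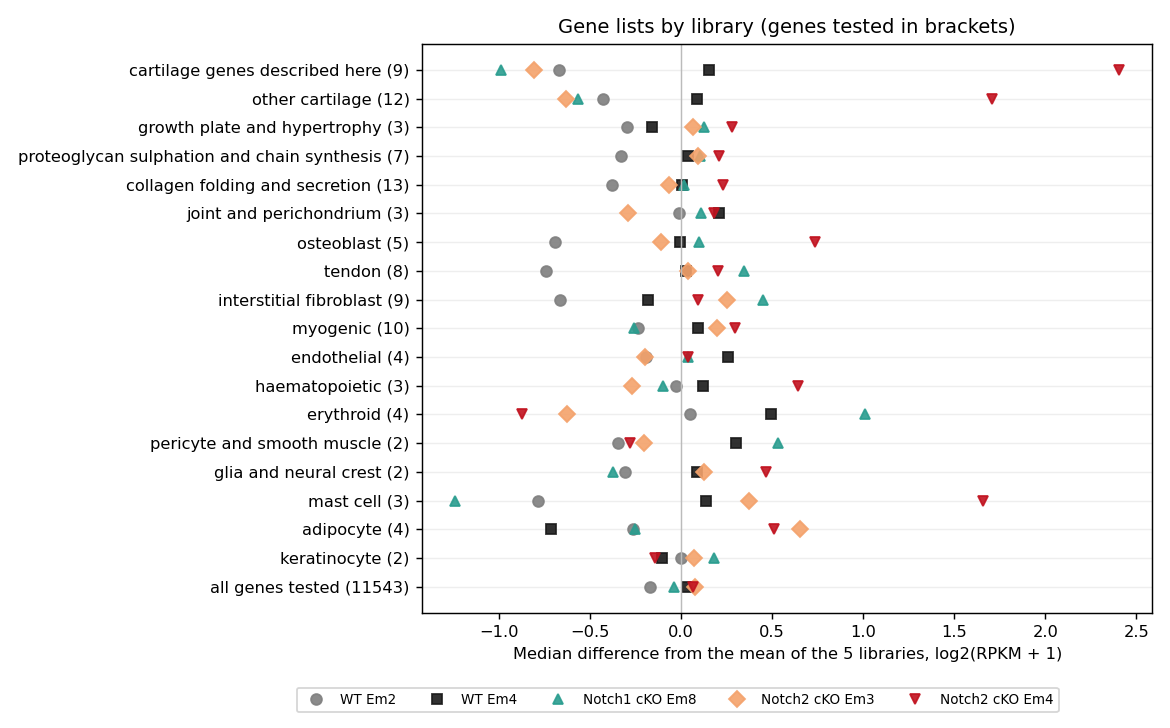
Median over the genes tested in each list of the difference from the gene's mean over the 5 libraries, on the log2(RPKM + 1) scale, with the number of genes tested in brackets. In Notch2 cKO Em4 the median is 2.41 for the cartilage genes described here and 0.06 for all genes.

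The genes nearest in pattern were found by the root mean square difference, over the 5 libraries, between a gene's centred log2(RPKM + 1) values and the median of the 9 cartilage genes tested. Besides the 10 cartilage genes, pseudogenes, numbered or clone-named gene models and immunoglobulin or T-cell receptor segments were left out of the order. The closest of the others among the 11543 genes tested were Mia (0.13), Comp (0.22), Epyc (0.28), Chad (0.38) and Spp1 (0.41). The median was 1.24 for all genes tested. Next after Spp1 came Cytl1 (0.42), Lyz2 (0.42), Hapln1 (0.44), Cnmd (0.46) and Scrg1 (0.46). Of these 10, 7 were on the list of further cartilage genes, which holds 12 of the 11543 genes tested. Epyc, Chad, Hapln1 and Scrg1, among others, passed the filter only through Notch2 cKO Em4, where the median profile is highest. That list was also chosen with earlier results known, so the count is a description and no support is drawn from it. Comp, for a pentameric protein of cartilage and tendon, stood at 10.4 RPKM in Notch2 cKO Em4 and at most 2.40 RPKM elsewhere. Lyz2, for the lysozyme of macrophages and granulocytes, stood at 11.4 RPKM in Notch2 cKO Em4 and 4.10 RPKM in WT Em4. Among the cartilage genes themselves, Col9a2 lay nearest to the median, at 0.11, and Sox9 farthest, at 1.03.

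**Figure D5:**
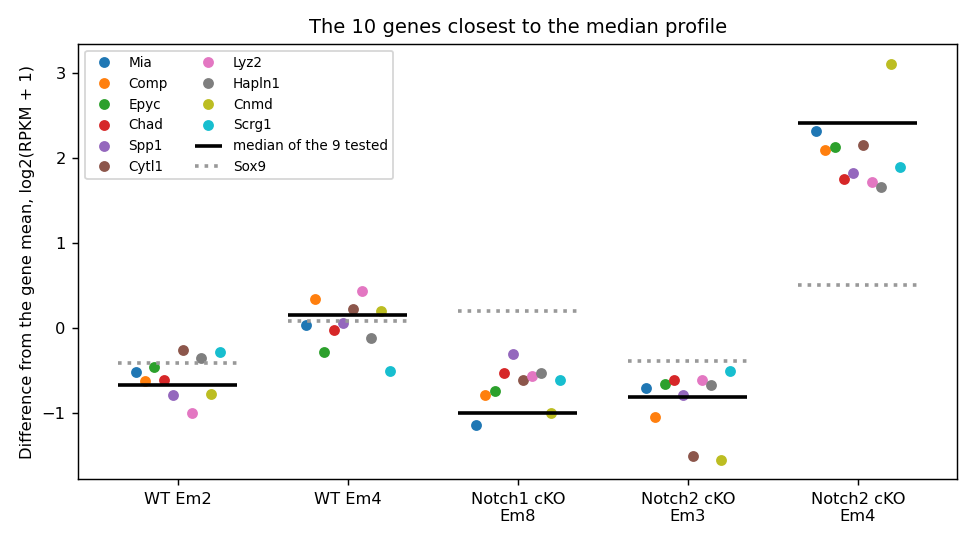
Difference of each gene from its own mean over the 5 libraries on the log2(RPKM + 1) scale for the 10 genes closest to the median (black bars) of the 9 cartilage genes tested, with Sox9 as dotted bars. The median reaches 2.41 in Notch2 cKO Em4, where Sox9 lies at 0.50.

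In all, 45 genes stood in Notch2 cKO Em4 more than 1 above every other library on the log2(RPKM + 1) scale, 0.39% of those tested. They included 8 of the 9 cartilage genes tested and 8 of the 12 further cartilage genes tested. Another 3 were mast cell genes, and the osteoblast, tendon and haematopoietic lists had 1 each, Spp1, Fmod and Tyrobp. The other 23 were on none of the lists. Matn1, Matn3, Col9a1, Epyc, Chad and Hapln1, among others, passed the filter only through Notch2 cKO Em4. The 10 cartilage genes had also been chosen for differences between libraries. These counts are therefore a description, and no support is drawn from them.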

How the data were processed

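The values, as the authors deposited them, are RPKM in 27179 rows for 5 libraries. Per the labels' protocols, the RNA was amplified with a SMART-Seq v4 kit and sequenced from both ends. Bcl2fastq 2.20.0 and mm10 are named in the submitters' processing notes. Sources used here do not give the aligner, counter or annotation. Rows without a gene name (1306, with 2.19% to 3.07% of a library's summed RPKM) were left out. The columns give a group and a tag but no replicate number.

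Whole reads were recovered from the steps of the RPKM values. The library totals chosen made 98.2% of 5487 gene lengths whole numbers of bases (tolerance 0.02), and the recovered reads came to between 99.1% and 99.2% of these totals. The tests used linear models with moderated variances and a variance trend (limma 3.58.1, R 4.3.3) on log2(RPKM + 1). All 5 libraries entered 1 fit of group means over 11543 genes, those averaging 1 RPKM or more. A fold change on this scale understates the change of low genes. P-values are two-sided, adjusted by Benjamini-Hochberg over all genes, and measure only the spread between these libraries, which may be technical. The fit had 2 residual and 103.8 prior degrees of freedom, and Notch1 cKO, with 1 library, borrowed the spread of the other groups. The procedure was tested on simulated reads in which the changed genes changed alike in both Notch2 cKO libraries. The simulations held no gene whose libraries of a group differ as those of the matrix genes do, so they do not bear on such genes.

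The members and gene lists were chosen with earlier results of these data known. Genes were named from the members, the 4 most abundant and any called gene of each list, the 10 genes closest in pattern and Notch1 and Notch2. Pax7, Sox6, Col27a1, Fmod, Sp7, Col10a1, Gdf5, Ms4a2, Tpsab1, Mcpt4 and Ptprc were named after their values were seen, as was the GC box letter search. Positions were matched by symbol in GENCODE M21 (GRCm38). Alternatives were other pseudocounts (0.1, 0.5), filters, scalings, removal of a gene length trend, limma voom, fits of the groups compared only and leaving out each library.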

Additional observations from a re-analysis of the deposited data

How the results depend on the processing

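Members called and genes called, given as higher and lower, depended on the settings. Notch2 cKO against WT had 41 and 21 genes called. The counts were 0 and 0 with no filter, 14 higher with a filter of 5 RPKM, 14 and 12 after median-of-ratios scaling, 26 and 2 after rescaling to the same sum, 3 and 1 after quantile normalization, 1 and 0 with the length trend removed, and 0 and 1 with limma voom. Notch1 cKO against WT (5 and 3) gave 9 and 6 with a pseudocount of 0.1, 0 and 0 with no filter, 2 and 1 after same-sum rescaling, 1 and 0 after quantile normalization, 0 and 0 with the length trend removed, and 2 and 1 with voom. Notch2 cKO against Notch1 cKO (32 and 24) gave 0 and 0 with no filter, 14 higher after median-of-ratios scaling against 18 lower, 20 and 7 after same-sum rescaling, 5 and 8 after quantile normalization, 0 and 0 with the length trend removed, 5 and 9 with voom, and 21 higher with these groups only. The 3 members called between the knockouts became 5 after same-sum rescaling, stayed 3 with a filter of 5 RPKM and became 0 under each other setting that kept all libraries. At an unadjusted p under 0.05, limma gave 1050, 301 and 983 genes with no filter and 687, 287 and 909 with the length trend removed, in the order of these comparisons, and 261 for Notch1 cKO against WT after quantile normalization. Same-sum rescaling called 1 member, Matn3, in Notch2 cKO against WT (adjusted p = 0.0181). Leaving out each library gave 7 to 52 genes higher and 6 to 235 lower in Notch2 cKO against WT, with 0 to 8 members higher and 0 to 1 lower. It gave 1 to 3 and 0 to 2 genes in Notch1 cKO against WT, and 22 to 45 and 13 to 42 between the knockouts, with 0 to 7 members higher. Log2 fold changes then ran from −1.67 to 3.42 for Col2a1 in Notch2 cKO against WT, and between the knockouts from −0.12 to 4.38 for Col9a3 and −0.021 to 4.47 for Matn1. The cause of these shifts was not tested. The 9 members tested (10 with no filter, 5 with a filter of 5 RPKM) had log2 fold changes above 0 in Notch2 cKO against WT under every setting that kept all libraries, with medians of 0.77 with the length trend removed and 1.06 after same-sum rescaling, which also moved the median of all genes from 0.14 to 0.28. Of the 10 genes closest in pattern, 9 were among the closest 10 with a pseudocount of 0.1. No paired analysis was possible because the columns carry no replicate numbers. Outside WT Em4 and Notch2 cKO Em4, 4 to 45 reads behind a matrilin or Snorc limit the ratios.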
